A study of Mus musculus with 8 samples.

Results

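The enzymes and the carrier that make, move and break down prostaglandins were examined in macrophages of wild-type and EP2 knockout mice. The 10 genes were Ptgs1, Ptgs2, Ptges, Ptges2, Ptges3, Hpgds, Tbxas1, Ptgis, Slco2a1 and Hpgd. They were taken as a list of known members of the pathway and not by their values, though earlier results of these data were known. Every gene probe of the arrays whose RefSeq transcript belonged to one of them was used. This gave 15 of the 39429 gene probes, and all 15 were well above background on all 8 arrays, so that 10 of 10 genes passed the filter and entered the 20738 tested features.

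The arrays were 1-colour Agilent expression arrays of total RNA from macrophages of male mice given LPS, a bacterial endotoxin. There were 4 arrays of wild-type mice (WT 1 to WT 4) and 4 of EP2 knockout mice (EP2KO 1 to EP2KO 4). EP2, the product of Ptger2, is one of the receptors through which prostaglandin E2 signals. Both genotypes had received LPS, so no array shows untreated cells. The strain, age, LPS dose and time, the tissue the macrophages came from, and the construction of the knockout are not given in the sources used here. The labels do not say that replicates are separate mice, so p-values measure the spread between these samples, which may be technical.

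The arrays stood apart by slide before any gene was considered. Per the file headers, slide 1 held WT 1, WT 2, EP2KO 1 and EP2KO 2, and slide 2 held WT 3, WT 4, EP2KO 3 and EP2KO 4. The first principal component of the tested features held 61.0% of the variance. For 43.5% of features the arrays of the slides did not overlap, against 1.38% for the genotypes. Slide and scan day coincide and cannot be told apart, and the labels do not say what else differed between these sets of samples. All 9 macrophage markers on the array, among them Adgre1, Csf1r and Lyz2, were well above background on all 8 arrays, with a summed signal of 219 to 425 times an array's 75th percentile. Markers of other cells were present as well. Those of large resident peritoneal macrophages summed to 132 to 200 on slide 1 and 11.8 to 26.1 on slide 2, those of B cells to 63.5 to 102 and 4.79 to 16.0, and those of fibroblasts and mesothelium to 4.30 to 141 over all arrays. In such bulk RNA, fewer cells of a type and less RNA per cell cannot be told apart.

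Prostaglandins are lipid messengers made from arachidonic acid, which phospholipases release from membranes. The cyclooxygenases, encoded by Ptgs1 and Ptgs2, convert it to prostaglandin H2, and terminal synthases turn that intermediate into prostaglandin E2 (Ptges, Ptges2, Ptges3), prostaglandin D2 (Hpgds), thromboxane (Tbxas1) or prostacyclin (Ptgis). Slco2a1 carries prostaglandins into cells, where the dehydrogenase encoded by Hpgd inactivates them. Macrophages that meet LPS typically induce Ptgs2 and Ptges and release prostaglandin E2, which acts back on them through EP2 and EP4 and raises cyclic AMP.

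The promoters of 3 genes are shown because the largest differences between the slides lay at Hpgds and Ptgs1, and because Ptgs2 is the LPS-inducible cyclooxygenase. Each is the stretch of 250 bases before the RefSeq gene start in GRCm38.p6, written 5′ to 3′ on the gene's strand. The windows are chr2:36230176-36230425 (plus strand) for Ptgs1, chr1:150099781-150100030 (plus strand) for Ptgs2 and chr6:65144731-65144980 (minus strand) for Hpgds. Capitals mark matches, on either strand, to the C/EBP pattern TTNNGNAA or to GAGGAA, a core bound by PU.1. Both are transcription factors of myeloid cells.
Ptgs1: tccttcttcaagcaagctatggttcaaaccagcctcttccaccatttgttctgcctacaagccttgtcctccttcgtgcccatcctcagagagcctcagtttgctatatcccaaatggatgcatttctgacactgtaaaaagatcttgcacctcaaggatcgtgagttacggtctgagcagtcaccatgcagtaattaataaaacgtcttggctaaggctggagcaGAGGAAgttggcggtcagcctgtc
Ptgs2: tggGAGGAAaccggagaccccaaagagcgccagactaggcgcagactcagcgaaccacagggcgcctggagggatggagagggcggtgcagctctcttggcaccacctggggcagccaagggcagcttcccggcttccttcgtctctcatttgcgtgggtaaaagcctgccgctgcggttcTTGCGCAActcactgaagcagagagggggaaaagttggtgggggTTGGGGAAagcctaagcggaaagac
Hpgds: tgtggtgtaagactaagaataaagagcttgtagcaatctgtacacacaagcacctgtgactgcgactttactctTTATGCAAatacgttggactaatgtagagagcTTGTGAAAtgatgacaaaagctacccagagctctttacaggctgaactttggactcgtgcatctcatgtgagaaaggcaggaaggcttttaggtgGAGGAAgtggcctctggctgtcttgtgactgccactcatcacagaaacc

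The Ptgs1 window held 1 PU.1 core and no C/EBP match, whereas the Ptgs2 and Hpgds windows each held 1 PU.1 core and 2 C/EBP matches. Matches to different patterns did not overlap in these windows. The promoter table had windows for 9 of the 10 genes (Ptgis has none there). Of these, 7 held GAGGAA, 5 held TTNNGNAA, 2 held the TATA box TATAAA (Tbxas1 and Slco2a1), 1 held the E-box CACGTG (Ptges2) and 0 held TGACG, the core of the cyclic AMP response element. Among all 32841 windows of the same length, 23.3% held GAGGAA, 36.9% TTNNGNAA, 12.4% TATAAA, 6.02% CACGTG and 17.8% TGACG. These are descriptions of letters in a short window, not binding sites. Bases outside the windows, among them those after the RefSeq gene start, were not searched. A count of 0 therefore does not mean that the genes lack the TGACG core near their starts. Ptgs1 and Hpgds, whose slide differences were opposite, both carried GAGGAA, and a link between these letters and the signals was not tested.

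No gene of the list passed the test between the genotypes. By limma on all 8 arrays, 0 of the 10 genes differed at an adjusted p of 0.05, against 2 of 20738 features (0.00964%). At an unadjusted p under 0.05 it was 1 of the 10 (Hpgd) against 1.97% of all features. With the slide as a block, 0 of 10 passed against 0.0193% of features, and 2 of 10 (Hpgd and Tbxas1) had an unadjusted p under 0.05 against 7.33%. With the replicate number as a block, 0 of 10 passed, as did 0 of all features (0%), and no member had an unadjusted p under 0.05 against 5.46% of features. The median difference, EP2KO minus WT, was -0.10 on the log2 scale over the 10 genes and -0.02 over all features, with 4 genes higher and 6 lower.

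The slides differed more. Slide 2 minus slide 1, with genotype in the model, was past the threshold for 3 of the 10 genes against 43.5% of all features, so the share was not above the background. Hpgds was higher on slide 2 (1 of 10, against 23.9% of features higher), and Ptgs1 and Ptges3 were lower (2 of 10, against 19.6% lower). The arrays of the slides did not overlap for 4 of the 10 genes (Ptgs1, Ptges, Ptges3 and Hpgds), against 43.5% of all features. The median slide difference was -0.45 over the 10 genes and 0.03 over all features.

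**Figure D1:**
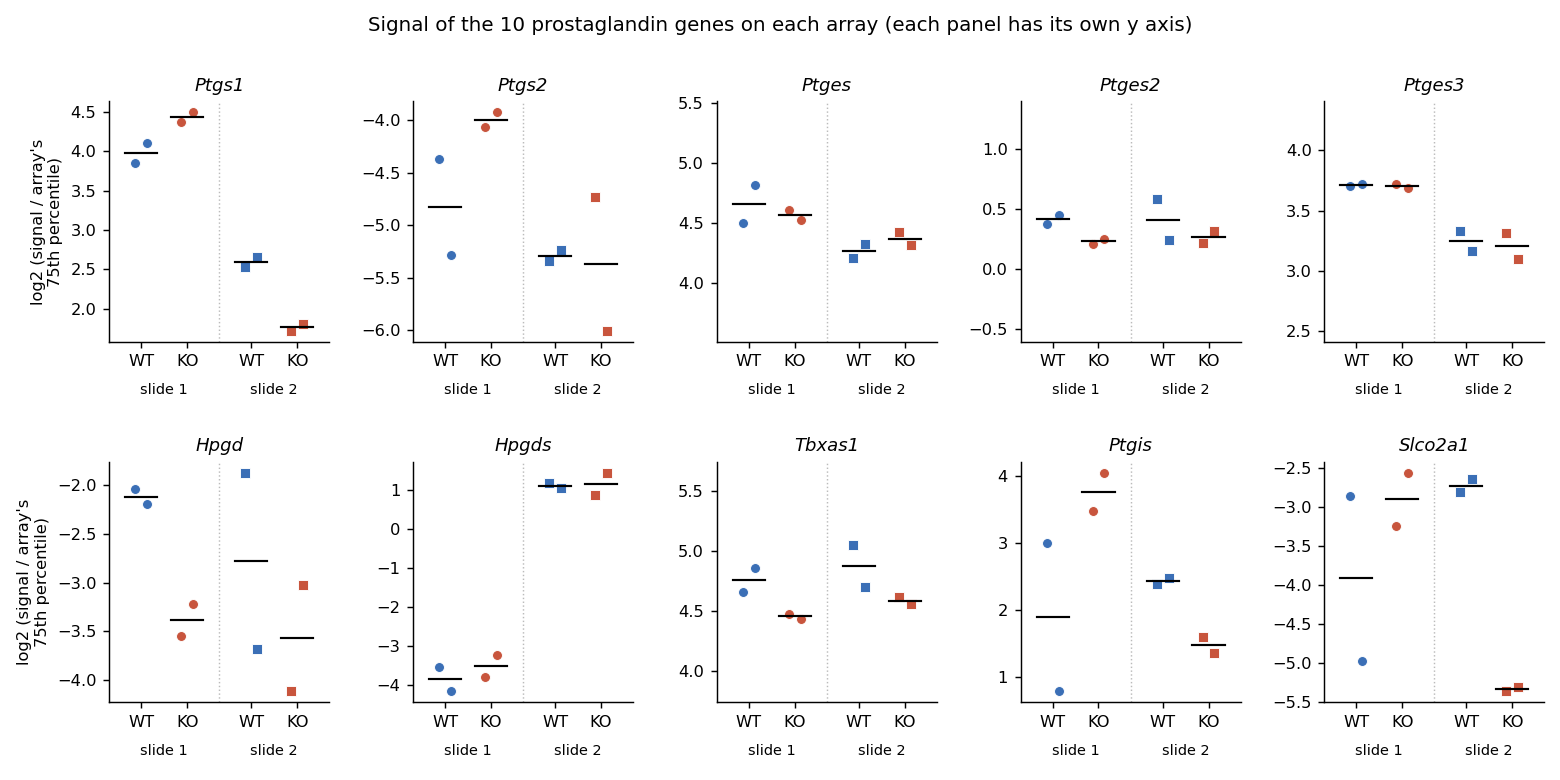
Log2 of the signal divided by its array's 75th percentile for the 10 genes, with 1 point per array (circles slide 1, squares slide 2, blue WT, red EP2KO) and black lines at the mean of the 2 arrays of a genotype on a slide. Each panel has its own y axis; Hpgds moved from about the bottom to the top of its panel between the slides, and the points of Ptgs1 and Ptgis changed order between the genotypes from slide to slide.

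In what follows a scaled signal is the processed signal divided by the 75th percentile of its array. Values are given for the probe that stands for the gene, the brightest where there were several. Signals of different probes are not compared, because probes differ in response. Differences are log2 values, each followed by the standard error (SE) from limma, with n = 4 arrays per genotype.

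Ptgs1 encodes cyclooxygenase 1, the form that most cells make constitutively. Its scaled signal was 14.4, 17.2, 5.78 and 6.30 on WT 1 to WT 4 and 20.7, 22.5, 3.30 and 3.51 on EP2KO 1 to EP2KO 4. All slide 1 arrays lay above all slide 2 arrays. Within slide 1 both EP2KO arrays were above both WT arrays, and within slide 2 both were below them. The gene was lower on slide 2 by 4.07-fold (-2.02 ± 0.26, limma adjusted p = 0.00113), with a 2.61-fold difference in WT and a 6.34-fold difference in EP2KO. The genotype difference was -0.19 ± 0.77 over all arrays (limma adjusted p = 1.00), with 0.45 on slide 1 against -0.83 on slide 2.

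The change of that genotype difference between the slides was -1.28 ± 0.20 for Ptgs1 (interaction term, limma adjusted p = 0.101). It did not pass over all features, of which 3 (0.0145%) did. At an unadjusted p under 0.05 the term held for 3 of the 10 genes, Ptgs1, Ptgis and Slco2a1, against 20.9% of features. Without WT 1 it was -1.15 and passed (limma adjusted p = 0.0423, and 0.0423 to 0.350 over its alternatives), in a fit that called 1183 features and in which WT 2, alone for its genotype on slide 1, was assumed to vary like the other arrays. Genes of large resident peritoneal macrophages were lower on slide 2 in 8 of 8 markers, all past the threshold, and so moved with Ptgs1 between the slides. Within slide 1 their sum was 132 and 163 on the WT arrays and 200 and 195 on the EP2KO arrays, the same way as Ptgs1. Within slide 2 it was 11.8 and 18.1 on the WT arrays and 20.8 and 26.1 on the EP2KO arrays, the other way round from Ptgs1. Their part in the Ptgs1 difference was not tested.

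Ptgs2 encodes cyclooxygenase 2, the form that LPS and cytokines induce. Its probe, printed in 10 spots, gave a scaled signal of 0.0484, 0.0257, 0.0247 and 0.0265 on WT 1 to WT 4 and 0.0597, 0.0658, 0.0377 and 0.0156 on EP2KO 1 to EP2KO 4. Outlier spots were left out on 2 arrays, so that 7 spots were used on EP2KO 1 and 8 on EP2KO 3. The signal was 1.91 to 9.33 times the lowest signal of any probe well above background on the same array, so Ptgs2 lay low in the measured range on every array.

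WT 1 was high among the WT arrays, and both EP2KO arrays of slide 1 were above both WT arrays there. On slide 2 the genotypes overlapped, with the highest and the lowest value both in EP2KO. The genotype difference of Ptgs2 was 0.38 ± 0.47 (limma adjusted p = 1.00), with 0.83 on slide 1 and -0.08 on slide 2. Its slide difference of -0.92 ± 0.35 did not pass (limma adjusted p = 0.0708). With the background handled by the normexp model instead, both values changed sign (genotype -0.37, slide 0.01), so no direction is given for Ptgs2.

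Ptges encodes the inducible microsomal prostaglandin E synthase and had 2 probes for 1 transcript. The probe that stands for the gene (A_55_P1974193) gave 22.7, 28.1, 18.5 and 20.03 on WT 1 to WT 4 and 24.4, 23.1, 21.5 and 19.9 on EP2KO 1 to EP2KO 4. All slide 1 values were above all slide 2 values, and the genotypes overlapped on both slides. Its genotype difference was 0.01 ± 0.16 (limma adjusted p = 1.00) and its slide difference -0.29 ± 0.11 (limma adjusted p = 0.0640).

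The second probe of Ptges (A_55_P1974189) varied far more. It gave 0.623, 0.379, 0.190 and 0.164 on WT 1 to WT 4 and 0.470, 0.466, 0.0764 and 0.0554 on EP2KO 1 to EP2KO 4. The slides did not overlap, and on slide 2 both EP2KO arrays were below both WT arrays. In a fit of every probe its slide difference was -2.16 ± 0.32, 4.45-fold lower on slide 2 (limma adjusted p = 0.00190), which the first probe did not show. Its genotype difference was -0.75 ± 0.83 (limma adjusted p = 1.00), with -0.05 on slide 1 and -1.44 on slide 2, and the change between the slides was -1.38 ± 0.38 (limma adjusted p = 0.147). Probe sequences were not used here, so whether the probes read the same part of the transcript was not tested.

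**Figure D2:**
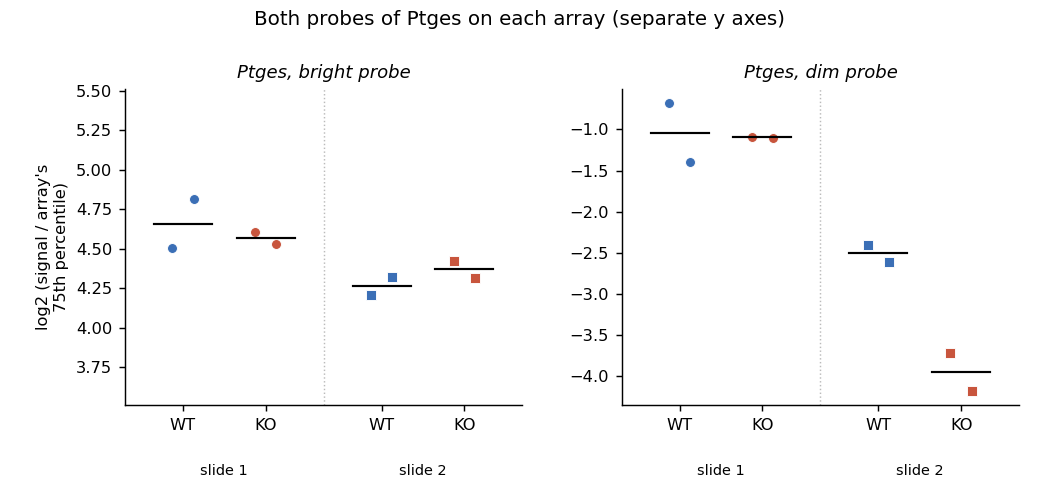
Log2 of the signal over the array's 75th percentile for both probes of Ptges, with 1 point per array (circles slide 1, squares slide 2, blue WT, red EP2KO) and lines at the mean of the 2 arrays of a genotype on a slide; the y axes differ. The bright probe (left), which stands for the gene, differed by -0.29 between the slides and the dim probe (right) by -2.16.

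Ptges2 encodes a second, membrane-associated prostaglandin E synthase. On WT 1 to WT 4 the scaled signal was 1.30, 1.36, 1.49 and 1.18, and it was 1.16, 1.19, 1.16 and 1.24 on EP2KO 1 to EP2KO 4. Within slide 1 the EP2KO arrays were below the WT arrays, and within slide 2 the genotypes overlapped. The genotype difference was -0.16 ± 0.12, with -0.18 on slide 1 and -0.15 on slide 2 (limma adjusted p = 1.00; slide-blocked 0.886), and the slide difference was 0.02 ± 0.10.

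Ptges3 encodes the cytosolic prostaglandin E synthase, better known as the Hsp90 co-chaperone p23. Its probe A_55_P1994355 gave 13.03, 13.2, 10.1 and 8.98 on WT 1 to WT 4 and 13.2, 12.9, 9.94 and 8.54 on EP2KO 1 to EP2KO 4. The slides did not overlap, and the genotypes overlapped on each. It was 1.40-fold lower on slide 2 (-0.48 ± 0.09, limma adjusted p = 0.00607), and this missed the threshold with the WT arrays alone (limma adjusted p = 0.135). Of its 4 probes 3 were lower on slide 2 past the threshold in the fit of every probe (-0.38 to -0.49), and A_55_P2100526 was not (-0.15 ± 0.10, limma adjusted p = 0.255). The genotype difference of Ptges3 was -0.03 ± 0.21, and it turned positive under median scaling (0.11), under which the median of all features also moved from -0.02 to 0.11.

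**Figure D3:**
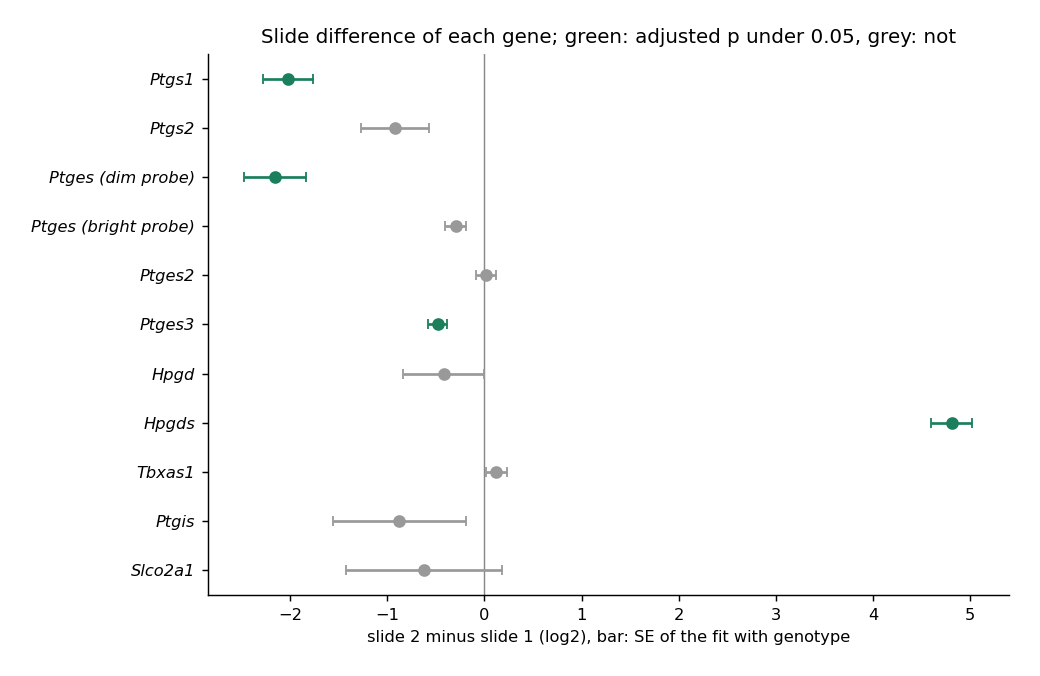
Slide 2 minus slide 1 on the log2 scale for the 10 genes and both probes of Ptges, from the limma fit with genotype, with bars for its SE and green for an adjusted p under 0.05. Hpgds lies at 4.81, Ptgs1 at -2.02, the dim probe of Ptges at -2.16 and Ptges3 at -0.48; the grey points did not pass.

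Hpgds encodes the haematopoietic prostaglandin D synthase, known from mast cells, T helper cells and some macrophages. Its scaled signal was 0.0862, 0.0563, 2.27 and 2.06 on WT 1 to WT 4 and 0.0725, 0.108, 1.84 and 2.73 on EP2KO 1 to EP2KO 4. Every slide 2 array was above every slide 1 array, and within both slides the genotypes overlapped. The gene was 28.0-fold higher on slide 2 (4.81 ± 0.21, limma adjusted p = 3.9e-05), by 31.0-fold in WT and 25.3-fold in EP2KO. This was the largest slide difference among the 10 genes. The genotype difference was 0.20 ± 1.74 without a slide term and 0.20 ± 0.21 with the slide as a block (limma adjusted p = 1.00 and 0.992).

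Markers of mast cells, which also make this enzyme, went the other way. Their sum was 12.8 to 37.0 on slide 1 and 3.11 to 14.02 on slide 2, and 6 of the 7 markers tested were lower on slide 2 past the threshold. T and NK cell markers summed to 2.22 to 4.87 on slide 1 and 1.83 to 2.49 on slide 2. The endothelial list summed to 2.77 to 3.52 on slide 1 and 9.18 to 18.04 on slide 2, with 2 of the 5 markers tested higher past the threshold and 1 lower. Its sum on slide 2 was mostly Vwf (6.22 to 14.4), while the endothelial markers Tie1 and Tek were not well above background on any array. The part of these cells in the Hpgds difference was not tested.

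Tbxas1 encodes thromboxane A synthase, an enzyme of platelets and macrophages. The arrays gave scaled signals of 25.4, 29.0, 33.1 and 26.1 on WT 1 to WT 4 and 22.3, 21.7, 24.6 and 23.6 on EP2KO 1 to EP2KO 4. It was the only gene of the 10 whose genotypes did not overlap over all arrays, with every EP2KO value below every WT value, against 1.38% of all features with no overlap in either direction. The difference was 1.23-fold and did not pass (-0.29 ± 0.13, limma adjusted p = 1.00; ± 0.11 and 0.595 with the slide as a block). It was -0.30 on slide 1 and -0.29 on slide 2, and the slides differed by 0.12 ± 0.11. Platelet markers summed to 49.8 to 69.7 in WT and 56.7 to 80.7 in EP2KO, nearly all of it Pf4, which macrophages can also express. The 6 others summed to 0.206 to 1.64. Their part in the Tbxas1 difference was not tested.

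Ptgis encodes prostacyclin synthase, best known from endothelium, smooth muscle and fibroblasts. Its scaled signal was 7.97, 1.72, 5.25 and 5.54 on WT 1 to WT 4 and 11.1, 16.6, 3.01 and 2.55 on EP2KO 1 to EP2KO 4. WT 2 was the lowest of all arrays. On slide 1 both EP2KO arrays were above both WT arrays, and on slide 2 both were below. The genotype difference was 0.46 ± 0.73 over all arrays (limma adjusted p = 1.00), with 1.87 on slide 1 against -0.96 on slide 2. Without WT 2 the slide 1 value was 0.77, and over all arrays the difference was -0.00. The change between the slides, -2.84 ± 0.94, did not pass (limma adjusted p = 0.177). Without WT 2, the lowest array, it was -1.73. Without WT 1, which leaves WT 2 as the WT array of slide 1, it was -3.94. Each of these fits leaves 1 WT array on slide 1.

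Slco2a1 encodes the main prostaglandin uptake carrier. Scaled signals were 0.138, 0.0319, 0.143 and 0.161 on WT 1 to WT 4 and 0.106, 0.170, 0.0243 and 0.0253 on EP2KO 1 to EP2KO 4. WT 2, EP2KO 3 and EP2KO 4 were low and the other 5 arrays lay close together. On those low arrays the signal was 3.36, 2.78 and 3.10 times the lowest signal of any probe well above background. On the other 5 arrays it was 11.2 to 24.2 times that signal. On slide 1 the genotypes overlapped, and on slide 2 both EP2KO arrays were below both WT arrays. The genotype difference was -0.80 ± 0.80 over all arrays (limma adjusted p = 1.00), with 1.02 on slide 1, which was -0.04 without WT 2, and -2.61 on slide 2.

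On slide 2 alone, with 2 arrays per genotype, Slco2a1 was 6.11-fold lower in EP2KO (limma adjusted p = 0.0265), with both EP2KO values low in the measured range. It was the 1 gene of the 10 to pass there, against 1.47% of 22922 features. At an unadjusted p under 0.05 slide 2 gave 3 of 10 (Ptgs1, Ptgis and Slco2a1), against 16.6% of features. Slide 1 alone called 0 of 10 genes by limma, as it did of all features (0%), and 2 of 10 (Ptgs1 and Hpgd) had an unadjusted p under 0.05 there, against 12.9%. The change between the slides was -3.63 ± 0.91 and did not pass (limma adjusted p = 0.136). Without WT 2 it was -2.57 and did not pass (limma adjusted p = 0.116). Without WT 1, which leaves the low WT 2 as the WT array of slide 1, it was -4.68 and passed (limma adjusted p = 0.0301, and 0.0301 to 0.383 over its alternatives). With the normexp background it was -2.25. Within slides the genotypes separated for 6 of the 10 genes on slide 1 and 4 on slide 2, against 49.6% and 50.4% of all features. Ptgs1 and Ptgis separated on both slides in opposite directions (2 of 10, against 17.1%), both with EP2KO above WT on slide 1 and below it on slide 2 (5.56% of features), and Tbxas1 on both in the same direction (1 of 10, against 7.23%).

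**Figure D4:**
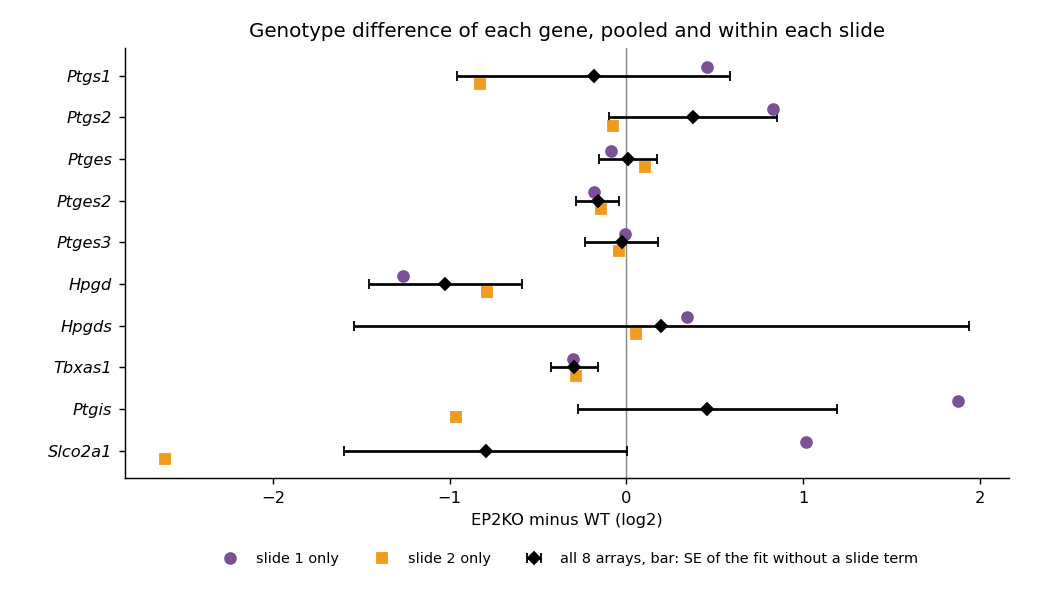
EP2KO minus WT on the log2 scale for each gene over all 8 arrays (black, with the SE of the fit without a slide term) and within slide 1 (purple circles) and slide 2 (orange squares). The slide values lie on opposite sides of 0 for Ptgs1, Ptgs2, Ptges, Ptgis and Slco2a1 and nearly coincide for Tbxas1 and Ptges2.

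Markers of fibroblasts and mesothelium were lowest on the arrays where Ptgis and Slco2a1 were low, but Ptgis did not follow them on the others. All 12 markers, which include Col1a1, Dcn, Wt1 and Krt19, were well above background on all 8 arrays. Their sum was 93.9, 20.4, 124 and 141 on WT 1 to WT 4 and 58.3, 98.8, 27.0 and 4.30 on EP2KO 1 to EP2KO 4, and so lowest on EP2KO 4, WT 2 and EP2KO 3, the arrays where both genes were low. Ptgis was highest on EP2KO 1 and EP2KO 2 (11.1 and 16.6), at sums below those of WT 3 and WT 4 (5.25 and 5.54). On slide 1, 12 of 12 markers were higher in EP2KO (median 1.03), but this rested on WT 2. Without it 2 of 12 were higher and 10 lower (median -0.25), while Ptgis was still higher in EP2KO (0.77). On slide 2, 12 of 12 markers were lower (median -3.39), also without EP2KO 4 (median -2.37). Their part in the values of Ptgis, Slco2a1 and Ptgs1 was not tested.

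Hpgd encodes the 15-hydroxyprostaglandin dehydrogenase, which inactivates prostaglandin E2. Its probe A_51_P458778 gave 0.243, 0.218, 0.273 and 0.0779 on WT 1 to WT 4 and 0.0856, 0.107, 0.0579 and 0.123 on EP2KO 1 to EP2KO 4. WT 1, WT 2 and WT 3 were above all EP2KO arrays, and WT 4 lay within the range of EP2KO. Hpgd had the largest genotype difference of the list in size, 2.04-fold lower in EP2KO (-1.03 ± 0.43), with an unadjusted limma p of 0.0461 and an adjusted p of 1.00 (0.652 when slide was a block). The difference was -1.26 on slide 1 and -0.79 on slide 2. The second probe (A_55_P2035424) gave -0.89 ± 0.38, with -1.05 on slide 1 and -0.73 on slide 2, and did not pass either (limma adjusted p = 1.00). The slides differed by -0.42 ± 0.42.

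T and NK cell markers summed to 4.87, 3.77, 2.38 and 2.16 on WT 1 to WT 4 and 2.42, 2.22, 1.83 and 2.49 on EP2KO 1 to EP2KO 4. They were thus high on WT 1 and WT 2, where Hpgd was high, but not on WT 3. On slide 1, 0 of the 7 markers tested were higher in EP2KO, and on slide 2, 6 of 7 were lower. Dendritic cell markers went the same way by genotype, with 0 of 5 higher in EP2KO on slide 1 (median -0.74) and 4 of 5 lower on slide 2 (median -0.49). Their sum was 15.7, 17.6, 2.37 and 3.43 on WT 1 to WT 4 and 11.2, 7.75, 2.05 and 3.01 on EP2KO 1 to EP2KO 4. It was thus lower on WT 3 than on WT 4, unlike Hpgd, and far lower on slide 2 than on slide 1. The part of either list in the Hpgd difference was not tested.

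**Figure D5:**
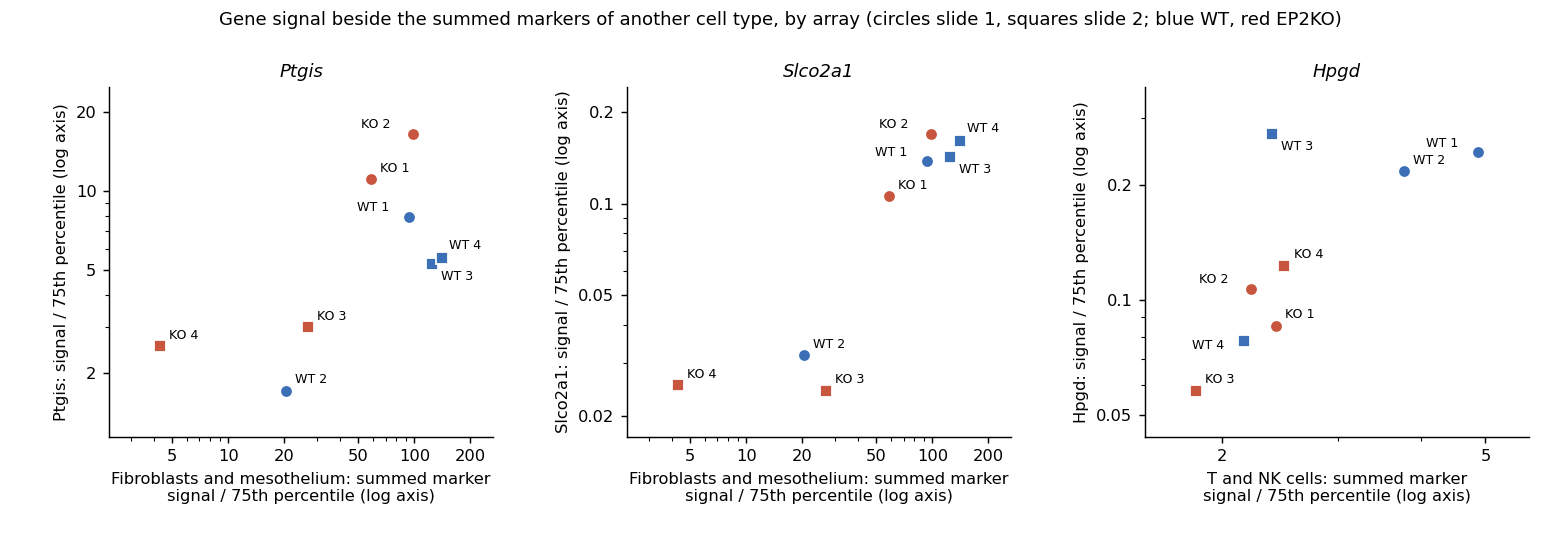
Scaled signal of Ptgis, Slco2a1 and Hpgd (y) against the summed scaled signal of markers of another cell type (x: fibroblasts and mesothelium for the first panels, T and NK cells for Hpgd), on log axes, with 1 point per array. WT 2, EP2KO 3 and EP2KO 4 lie at the lower left for Ptgis and Slco2a1. Ptgis is highest on EP2KO 1 and EP2KO 2, at marker sums below those of WT 3 and WT 4. For Hpgd WT 1 and WT 2 lie at the upper right while WT 3 is high in Hpgd at a marker sum of 2.38.

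Some of the genes varied together once each slide's mean was subtracted, over 8 arrays that share slide and genotype. Of the 45 pairs, 9 had a Pearson r over 0.75 in size and 20 one under 0.3. Ptges2, Hpgd and Tbxas1 ran alike (Pearson r of 0.961 for Ptges2 with Hpgd, 0.904 for Ptges2 with Tbxas1 and 0.805 for Hpgd with Tbxas1). Each was lower in EP2KO on both slides, and the genotype difference was not subtracted. Ptgis ran with Slco2a1 (0.813) and with Ptgs2 (0.764), and Ptgs1 with Slco2a1 (0.770). Ptges ran against Ptgis (-0.802), Hpgds (-0.796) and Slco2a1 (-0.764). These are descriptions of 8 points and carry no test. Ptges2, Tbxas1 and Ptges spanned only 0.37, 0.49 and 0.31 on the log2 scale after the subtraction.

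For the 4 genes that spanned 1 or more on the log2 scale after that subtraction, the named genes most like them were found among 2900 candidates. Ptgis was most like Vcl (Pearson r = 0.993 over 8 arrays), Arhgap8 (0.993) and Flrt2 (0.992). Slco2a1 was most like the integrin subunit Itga3 (0.993), Esyt3 (0.993) and the G protein subunit Gnai1 (0.990). Hpgd was most like the natural killer cell receptor Ncr1 (0.958), Gm5800 (0.951) and Tnfsf8 (0.938), and Ptgs2 was most like Psrc1 (0.957), Amotl1 (0.949) and Mtmr7 (0.939). Ncr1 is also one of the 7 T and NK cell markers tested, and differed by -0.96 on slide 1 and -0.51 on slide 2. Ncr1 was named for this likeness in the same arrays and does not stand for that list. On the WT arrays of slide 2, in number order, Hpgd was 0.273 and 0.0779. Cd3e (0.418 and 0.436) and Klrb1c (0.0867 and 0.100) ran the other way there. Cd3g, Lat, Bcl11b and Cd4 ran the same way as Hpgd, but by far less. Ncr1 (0.0427 and 0.0232) also ran the same way, by less than Hpgd but by more than those genes.

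Around these genes, a list was made of 48 further genes in or near the pathway. They were grouped under substrate release, other synthases, further transport and breakdown, and receptors. Of these 47 were on the array and 39 were tested. None passed between the genotypes on all 8 arrays (limma, 0 of 39 against 0.00964% of all features; 6 of 39 at an unadjusted p under 0.05 against 1.97%). With the slide as a block 1 passed, the targeted gene Ptger2, against 0.0193% of features, and 11 had an unadjusted p under 0.05 against 7.33%. The 11 include Ptgdr2 and Faah, and the 6 include Ptgdr2. Both genes passed the filter through WT alone, so these counts are partly set by the filter. The median genotype difference of the 39 was -0.06.

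Ptger2 served as the check of the labels. Its scaled signal was 1.07, 1.21, 0.971 and 1.07 on WT 1 to WT 4 and 0.390, 0.319, 0.347 and 0.240 on EP2KO 1 to EP2KO 4. Every EP2KO array was below every WT array. It was 3.38-fold lower in EP2KO (-1.76 ± 0.15 with the slide as a block, limma adjusted p = 0.0413; 0.0721 without a slide term and 0.225 with the replicate block). The deleted stretch of Ptger2 and the place of the probe are unknown here, and the signal left in EP2KO was not examined further.

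Of the other receptors, Ptgdr2, which binds prostaglandin D2, was at -0.87 ± 0.18 (slide-blocked limma adjusted p = 0.242). Its scaled signal was only 0.0157 to 0.0240 in WT and 0.00847 to 0.0165 in EP2KO. On EP2KO 3 it lay below the lowest signal of any probe well above background. Ptgdr2 thus passed the filter through WT alone, and no direction is given for it. Ptger1 was at -0.56 ± 0.22 and Ptger4, the EP4 receptor, at -0.33 ± 0.12. Among carriers and breakdown enzymes, Slco3a1, which transports prostaglandins, was at -0.86 ± 0.15 (-0.67 on slide 1 and -1.05 on slide 2, slide-blocked limma adjusted p = 0.181). Abcc4, an exporter of prostaglandins, was at -0.09 ± 0.09, Ptgr1 at 0.15 ± 0.15 and Ptgr2 at 0.11 ± 0.12. None of these passed.

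Among genes listed under substrate release, Pla2g7 was at 0.56 ± 0.16, Pla2g2e at 0.84 ± 0.25, Pla2g2f at -0.64 ± 0.20 and Faah at -0.64 ± 0.23. The first 3 are phospholipases and the last a fatty acid amide hydrolase. On EP2KO 3 Faah lay below the lowest signal of any probe well above background. Faah thus passed the filter through WT alone, and no direction is given for it. Among those listed under other synthases, Cbr3, a carbonyl reductase, was at -0.58 ± 0.16 and Mgst1 at 0.24 ± 0.10. Prxl2b, a prostaglandin F synthase, was at -0.12 ± 0.11 and Mgst2 at -0.23 ± 0.21. In the slide-blocked limma fit the adjusted p-values of the genes of both groups ran from 0.397 to 0.980, so none passed.

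Between the slides, 14 of the 39 pathway genes were higher on slide 2, 11 were lower and 14 did not pass, beside 43.5% of all features past the threshold. By role it was 4 higher and 3 lower of 12 for substrate release, 8 and 2 of 12 for the other synthases, 1 and 3 of 7 for transport and breakdown, and 1 and 3 of 8 for receptors. Examples chosen after their values were seen were Slco2b1, an organic anion carrier, 32.1-fold higher (5.01 ± 0.35), and Pparg, a nuclear receptor for prostaglandin D2 products, 8.72-fold higher (3.12 ± 0.24). Pla2g2e was 27.3-fold higher (4.77 ± 0.25). Mgst2 was 7.25-fold lower (-2.86 ± 0.21) and the thromboxane receptor Tbxa2r 5.43-fold lower (-2.44 ± 0.34). Genes of every role thus differed between the slides in both directions.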

How the data were processed

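Total RNA of macrophages from 4 WT and 4 EP2KO samples, labelled with Cy3 per the labels' protocols, had been hybridised to 1-colour Agilent arrays. The deposited scanner files hold spot intensity on a linear scale, background-corrected and not scaled between arrays, per the file headers. Feature Extraction is version 10.7.1.1 per the file headers and 9.1 per the submitters' processing notes. The deposited series table holds the same intensity (largest log2 difference 0), with column medians of 52.6 to 96.9.

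Processed signals were put on the log2 scale, and the 75th percentile of an array was subtracted from its values. Of 44397 spots, 1377 control spots were left out, outlier spots (125 to 201 per array) were set missing and spots of a probe averaged; 0 spots were saturated. Well above background were 25566 to 32161 of 39429 probes per array. Probes were named through RefSeq transcripts of GRCm38.p6 (27508 named, 11921 not); the array's design states mm9, so coordinates are given only for the RefSeq promoter windows. Probes well above background on all arrays of a genotype were kept (25174), and the brightest stood for its gene. Fits used lmFit and eBayes of limma 3.58.1 under R 4.3.3 (two-sided, Benjamini-Hochberg over 20738 features, threshold 0.05) and were checked on simulated data. The number of arrays limits the precision.

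Slides come from the file headers. On both, positions 1 and 2 were WT and positions 3 and 4 EP2KO, so position and genotype cannot be told apart. Same-numbered arrays deviated from their groups together, with correlations over features of 0.74, 0.12, 0.55 and 0.43 in number order, which was taken as pairing, from the data and not the labels; such pairs also share a slide, and within slides r was -0.39 and -0.10.

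Named were all members, the pathway genes called in the slide-blocked fit and otherwise up to 4 per role with the smallest p there, and the 3 genes most like each varying member. The members, lists and tests were chosen with earlier results of these data known. Alternatives covered background, scaling, filter, probe, variance model, array weights, blocks, single slides and leaving out each array.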

Additional observations from a re-analysis of the deposited data

Results flagged for a closer look

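Among 20 groups of 4 arrays (10 genes in each genotype), 2 held an array whose gap to the nearest other was, as a share of the group's range, above Dixon's critical value for 4 samples. For samples of 1 population chance gives about 1 in 20. Each group here held 2 arrays of each slide, so that rate need not hold. Ptgs2 was high on WT 1 among the WT arrays (gap over range 0.896). Slco2a1 was low on WT 2 among the WT arrays (0.905), the array on which fibroblast and mesothelial markers were also lowest among WT arrays.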

How the results depend on the processing

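The slide differences of Hpgds (4.02 to 4.96) and Ptgs1 (-2.66 to -1.38) were past the threshold in 22 of 22 alternatives each, and that of Ptges3 in 21 of 22. Hpgd, Tbxas1 and Ptges2 kept the direction of their genotype difference in 24 of 24 alternatives each, and none passed in any. The normexp background was run on the median spot signal; it moved the median of all features from -0.02 to -0.10 for genotype and from 0.03 to 0.17 for slide.

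Of all features, 2 passed between genotypes without a block, 4 with the slide as a fixed or random block, 0 with the replicate block, which changed no other call among the members, 0 on slide 1, 336 on slide 2 (13 higher and 323 lower) and 0 to 4 when 1 array was left out. The interaction gave 0 with normexp, 5 with median scaling, 1 without a filter, 8 with a trended robust variance, 1 with array weights, and 0 to 1183 with 1 array left out, the highest without WT 1. The slide difference gave 3533 with normexp and 2845 in WT alone. Members past the threshold numbered 1 for genotype on slide 2, 0 to 3 for the interaction with 1 array left out, and for slide 7 with array weights, 5 in EP2KO alone and 3 to 5 with 1 array left out (5 without WT 2, which added Ptgis and Ptgs2).

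Genotype differences changed sign for Hpgds with array weights (-0.23) and with 1 array left out (-0.73 to 1.07). They did so for Ptges with the mean of its probes (-0.37), on slide 1 (-0.089) and with 1 array left out (-0.077 to 0.12), and for Ptges3 with normexp (0.084), median scaling (0.11), array weights (0.014) and 1 array left out (-0.13 to 0.094). Ptgis changed sign on slide 2 (-0.96) and with 1 array left out (-0.023 to 0.88), Ptgs1 with array weights (0.027), on slide 1 (0.45) and with 1 array left out (-0.65 to 0.27), Ptgs2 with normexp (-0.37) and on slide 2 (-0.075), and Slco2a1 on slide 1 (1.02). Within slide 1 Slco2a1 was -0.040 without WT 2, an alternative added after seeing the data, as were the other within-slide values without WT 2 or EP2KO 4. Slide differences changed sign with normexp for Hpgd (0.070), Ptges2 (-0.0068) and Ptgs2 (0.0082), with median scaling for Ptges2 (-0.0071), with 1 array left out for Ptges2 (-0.047 to 0.088), and in WT alone for Ptges2 (-0.00043), Ptgis (0.54) and Slco2a1 (1.19). The cause was not tested.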
